A study of Homo sapiens with 8 samples.

Results

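The EYA phosphatases and the SIX-family transcription factors were followed as a family through control and RBM6-deficient breast epithelial cells. The members were chosen by name, with earlier results of these data known. They were the EYA genes EYA1, EYA2, EYA3 and EYA4 and the SIX-family genes SIX2, SIX4 and SIX5, which are 7 of the 58233 genes in the count table. SIX3 and SIX6 are given beside them. All groups were grown from MCF10A, an immortal line of human mammary epithelium that does not form tumours, into which the oncogene H-Ras had been introduced. RNA was sequenced in 4 groups of 2 biological replicates, labelled A and B, and the 4 groups were untreated control cells, control cells 12 h after 5 Gy of ionizing radiation (IR), untreated RBM6-KO1 cells, and RBM6-KO1 cells 12 h after 5 Gy of IR. RBM6-KO1 is a single clone, made with a Cas9 nickase and a pair of guides to RBM6, which encodes an RNA-binding protein that regulates splicing. Clonal differences and the loss of RBM6 therefore cannot be told apart in these comparisons.

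EYA proteins are unusual in joining a tyrosine phosphatase domain to a domain that activates transcription. They do not bind DNA by themselves and are brought to it by SIX-type homeodomain proteins, in a network with PAX and DACH factors that builds eye, ear, kidney and muscle. In the response to DNA damage, EYA1, EYA2 and EYA3 are known to remove a phosphate from the terminal tyrosine of histone H2AX, after which the repair scaffold MDC1 can bind.

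Library totals ran from 15355281 to 29832009, so the 3 counts that a zero allows corresponded to between 0.0966 and 0.204 in normalized counts-per-million (CPM), for counting error only. All 8 of the basal epithelial markers examined were above 1 CPM in every library. Of 6 luminal markers, KRT8, KRT18, GATA3 and FOXA1 were above it in every library and ESR1 and PGR below it. All 4 immune and all 4 skeletal muscle markers and the endothelial CDH5 were also below 1 CPM in every library. The other endothelial marker, PECAM1, was above 1 CPM throughout and was not called between genotypes, at log2 fold changes of 1.16 untreated and 1.56 after IR (adjusted p = 0.0681 and 0.0865 by edgeR). Of 4 fibroblast markers DCN was called higher in RBM6-KO1 cells after IR, at 1.11 (adjusted p = 0.0389 by edgeR) beside 0.91 untreated, under 2-fold. COL1A1 was at -0.74 untreated and -1.17 after IR without being called, COL1A2 had at most 1 count, and PDGFRB was at -0.70 after IR, not called. PDGFRB rose after IR in control cells, by 3.0 on the log2 scale (adjusted p = 0.0264 by edgeR). The sum over the 4 fibroblast markers was 81.0 to 81.4 CPM in untreated control and 119 to 155 CPM in untreated RBM6-KO1 cells. After IR it was 91.1 to 108 against 173 to 211 CPM. This sum is mostly DCN, which reached 204 CPM in its highest library, where COL1A1 reached 14.4 and PDGFRB 1.71 CPM in theirs. It is therefore no measure of fibroblasts, and its part in the results below was not tested. RBM6 itself had 66.9 and 68.8 CPM in untreated control cells and 61.5 and 63.2 CPM in untreated RBM6-KO1 cells. After IR it had 54.5 and 48.9 CPM in control cells and 44 and 33.9 CPM in knockout cells, so a count per gene does not reveal the deletion and checks no label.

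The members differed widely in level. On a scale per length (RPKM, the normalized CPM divided by the exon length in kilobases), SIX5 and EYA3 stood highest in untreated control cells, at 2.83 to 2.91 and 2.50 to 2.90 RPKM, and their ranges overlapped. SIX4 followed at 1.54 to 1.71 RPKM, then EYA2 at 0.967 to 1.11, SIX2 at 0.778 to 0.835 and EYA1 at 0.145 to 0.161 RPKM, with no overlap between neighbours in this order. EYA4, a gene linked to hereditary deafness and cardiomyopathy, was nearly silent: the 8 libraries held 2 counts in all, at most 1 in any library. SIX3 and SIX6, both eye and forebrain factors, had 0 counts in all 8 libraries, which allows up to 0.204 CPM in the shallowest.

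**Figure D1:**
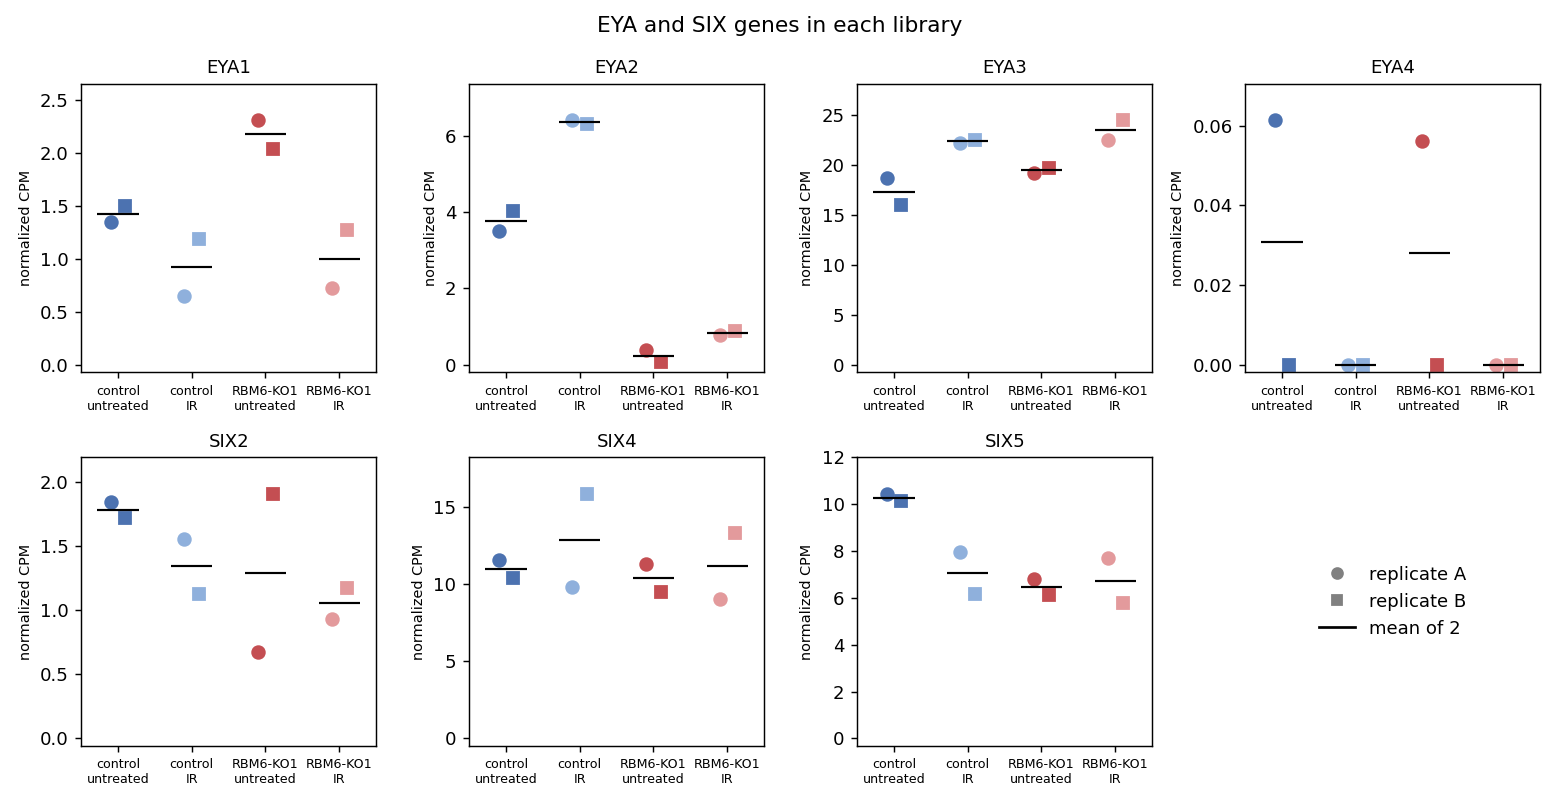
Normalized CPM (vertical axis, linear and from 0, scaled for each gene) of the 7 members in the 4 groups, with a circle for replicate A, a square for replicate B and a line for their mean. EYA2 falls below 0.9 CPM in all 4 RBM6-KO1 libraries against 3.50 to 6.41 CPM in the 4 control libraries, while no other member shows such a gap between genotypes.

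EYA2 was the member that set RBM6-KO1 cells apart from control cells. EYA2 (ENSG00000064655) lies on the plus strand of chromosome 20 at 46894624 to 47188844 (GRCh38, GENCODE v44). In untreated control cells its normalized level was 3.50 CPM in replicate A and 4.02 CPM in replicate B (57 and 75 counts). In untreated RBM6-KO1 cells the level was 0.394 and 0.0680 CPM, from 7 and 1 counts, and the 1-count library lay under its own 3-count limit of 0.204 CPM. The knockout libraries were both far below the control libraries, with no overlap. EYA2 fell by 3.92 on the log2 scale (standard error 0.53, 95% interval -5.02 to -2.81, Benjamini-Hochberg adjusted p = 0.000129 by the quasi-likelihood test of edgeR). The knockout estimate depended on a single library: without RBM6-KO1 replicate A the log2 fold change was -5.67, and without replicate B it was -3.23, and EYA2 was called both times. Pooled over the replicates, 132 control counts stood against 8 knockout counts, a depth-adjusted ratio of 15.3 with an exact 95% interval of 7.56 to 36.3 for counting error only. In bulk RNA, fewer expressing cells and less RNA per cell cannot be told apart.

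After IR the gap between genotypes remained in every library. Irradiated control cells had 6.41 and 6.31 CPM of EYA2 (99 and 196 counts) and irradiated RBM6-KO1 cells had 0.774 and 0.882 CPM (15 and 18 counts). The replicates lay close together within each genotype, and no value of the knockout group reached the lowest control value. EYA2 fell by 2.92 on the log2 scale (standard error 0.30, 95% interval -3.62 to -2.23, adjusted p = 0.0111 by edgeR). Its pooled counts of 295 in control and 33 in RBM6-KO1 cells gave a ratio of 7.65 (exact 95% interval 5.33 to 11.3). The study had singled out EYA2 from these libraries, so its fall here is not independent evidence for the gene. Outside these libraries, the paper reported reduced EYA2 mRNA by RT-qPCR in this clone and in further RBM6 knockout clones made with other guides.

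Of the 6 members tested, EYA2 was the single one called in each genotype comparison, a gene being called where its adjusted p was under 0.05 and its change 2-fold or more. In untreated cells this was 1 of 6 members, against 3.12% of the 15556 genes tested in either direction and 1.97% called lower. After IR it was again 1 of 6, against 1.17% of the 15587 genes tested in either direction and 0.815% called lower. The study had already singled out EYA2 from these libraries, so setting it against these shares is a description. EYA4 did not pass the filter on low counts. The median log2 fold change of the 6 members was -0.30 in untreated cells and -0.13 after IR, beside medians of 0.01 and 0.02 over all genes tested.

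**Figure D2:**
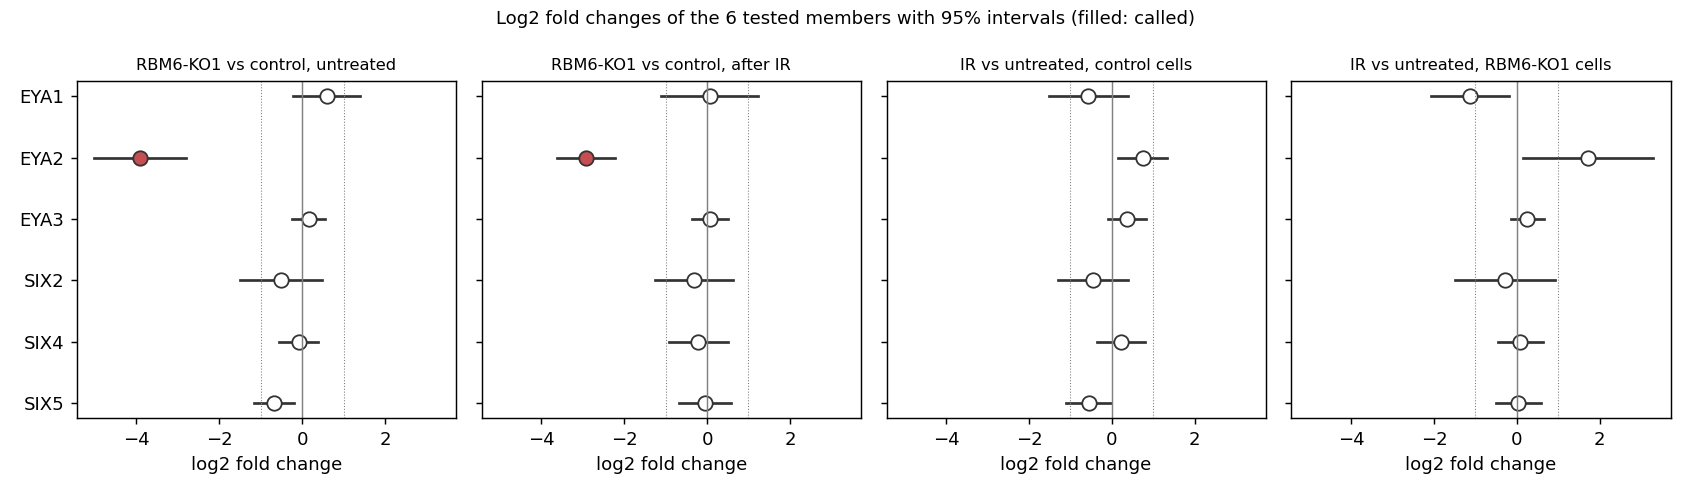
Log2 fold change (horizontal axis) of the 6 tested members in the 4 pairwise comparisons, with 95% intervals as bars and filled points for called genes; dotted lines mark a 2-fold change. EYA2 is the only filled point, at -3.92 and -2.92 in the genotype comparisons, and none is filled in the IR comparisons.

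The level of EYA2 was higher after IR in each genotype, but the rise did not pass the test in either. In control cells the log2 fold change was 0.75 (standard error 0.27, adjusted p = 0.121 by edgeR), with both irradiated libraries above both untreated ones. In RBM6-KO1 cells it was 1.73 (standard error 0.70, adjusted p = 0.139 by edgeR), again without overlap, although from only 8 counts before IR. Without untreated RBM6-KO1 replicate A this value was 3.48, and without replicate B it was 1.05. The difference between the IR responses was 0.98 on the log2 scale (95% interval -0.43 to 2.39, adjusted p = 1.0 and unadjusted 0.154 by edgeR), so a difference in either direction was not resolved at this depth. After IR, EYA2 in RBM6-KO1 cells remained below its level in untreated control cells, at 0.774 to 0.882 against 3.50 to 4.02 CPM.

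Neither EYA3 nor EYA1 was called between genotypes, and EYA4 could not be tested. EYA3 (chromosome 1, 27970344 to 28088637) is the most broadly expressed of these phosphatases. It had 18.7 and 16.0 CPM in untreated control cells, 22.2 and 22.5 CPM in control cells after IR, 19.2 and 19.7 CPM in untreated RBM6-KO1 cells, and 22.5 and 24.5 CPM in RBM6-KO1 cells after IR. Both untreated knockout libraries lay slightly above both control libraries, and the irradiated groups overlapped. Its genotype log2 fold change was 0.15 untreated (95% interval -0.25 to 0.56, adjusted p = 0.764 by edgeR) and 0.08 after IR (95% interval -0.36 to 0.51, adjusted p = 0.952). In both genotypes the irradiated EYA3 libraries lay above the untreated ones, by 0.36 in control and 0.26 in knockout cells on the log2 scale, and neither value was called (adjusted p = 0.308 and 0.355 by edgeR).

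EYA1 (chromosome 8, 71197433 to 71592025), mutated in branchio-oto-renal syndrome, was at 1.35 and 1.50 CPM in untreated control cells and 2.31 and 2.04 CPM in untreated RBM6-KO1 cells. The knockout libraries were the higher ones, without overlap, but the log2 fold change of 0.59 (95% interval -0.22 to 1.40) was not called, with an adjusted p of 0.464 by edgeR. Here and for the other members, a lack of overlap between groups of 2 libraries is a description. Its share over all genes was not counted. After IR the level was 0.647 and 1.19 CPM in control cells and 0.722 and 1.27 CPM in RBM6-KO1 cells, so replicate B was above replicate A in each and the genotypes overlapped. EYA1 was the one tested EYA gene that was lower after IR in both genotypes, with log2 fold changes of -0.58 (adjusted p = 0.426 by edgeR) and -1.13 (standard error 0.42, adjusted p = 0.114), neither of them called.

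With EYA2 low, the makeup of EYA mRNA in RBM6-KO1 cells was different. Per length, EYA2 supplied 24.1% to 29.5% of the summed EYA level in untreated control cells and 32.4% to 33.4% after IR. In RBM6-KO1 cells it supplied 0.568% to 3.25% untreated and 5.64% to 5.81% after IR. EYA3 accordingly supplied 66.2% to 72.2% and 65.2% in control cells, and 89.2% to 92.8% and 90.9% to 92.3% in RBM6-KO1 cells. The total over the EYA genes was 3.90 ± 0.178 RPKM (SD, n = 2) in untreated control and 3.33 ± 0.0281 RPKM in untreated RBM6-KO1 cells, and 5.34 ± 0.0576 against 3.99 ± 0.282 RPKM after IR. These shares and totals are a description, since they follow from the EYA2 values already given.

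**Figure D3:**
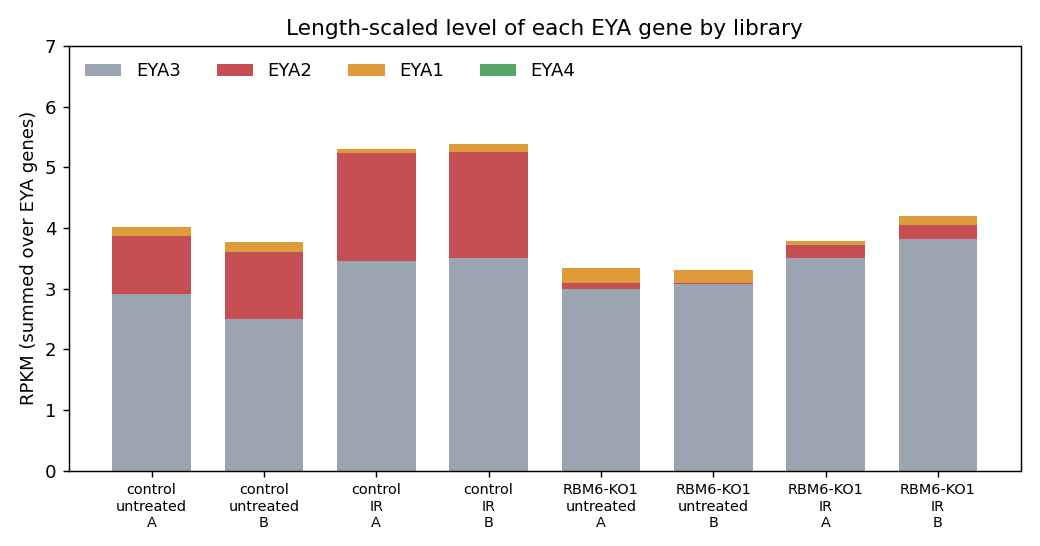
RPKM of each EYA gene (vertical axis, from 0), stacked for each of the 8 libraries. EYA3 makes up the largest segment in all 8 libraries and the EYA2 segment is thin in the 4 RBM6-KO1 libraries, where it is at most 5.81% of the stack.

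None of the SIX-family members was called in any comparison by edgeR or DESeq2, and of these SIX5 alone had an unadjusted p under 0.05, in untreated RBM6-KO1 cells (0.00948 by edgeR) and after IR in control cells (0.0453). SIX5 (chromosome 19, 45764785 to 45769252), which lies beside DMPK at the myotonic dystrophy locus, had 10.4 and 10.1 CPM in untreated control cells and 6.81 and 6.12 CPM in untreated RBM6-KO1 cells, with no overlap. The log2 fold change was -0.68 (standard error 0.23, 95% interval -1.17 to -0.19), with an adjusted p of 0.104 by edgeR. Its exons have a GC content of 68.0%, the highest of the members. A joint correction for GC content, exon length and expression level, chosen after seeing the data, moved the log2 fold change to -0.41. The part of GC content alone was not tested. After IR, SIX5 was at 7.96 and 6.15 CPM in control and 7.69 and 5.78 CPM in RBM6-KO1 cells, overlapping (log2 fold change -0.05, adjusted p = 0.983 by edgeR). In control cells both irradiated libraries lay below both untreated ones, at a log2 fold change of -0.56 (adjusted p = 0.188), or -0.27 after the same correction.

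SIX4 (chromosome 14, 60709539 to 60724351), a homeodomain factor of developing muscle, overlapped between the groups in all 4 comparisons. It had 11.6 and 10.4 CPM in untreated control, 9.84 and 15.9 CPM in irradiated control, 11.3 and 9.52 CPM in untreated RBM6-KO1, and 9.03 and 13.4 CPM in irradiated RBM6-KO1 cells. After IR replicate B was the higher one in both genotypes, and the replicates of each irradiated group differed more than the genotype means did. The genotype log2 fold change was -0.09 untreated (95% interval -0.55 to 0.38) and -0.21 after IR (95% interval -0.92 to 0.51).

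SIX2 (chromosome 2, 45005182 to 45009452), which keeps kidney progenitors undifferentiated, was at 1.84 and 1.72 CPM in untreated control cells and 1.55 and 1.13 CPM in irradiated ones. RBM6-KO1 cells had 0.676 and 1.90 CPM untreated and 0.929 and 1.18 CPM after IR. The untreated knockout replicates spanned the control values on both sides. Its genotype log2 fold change was -0.51 untreated (95% interval -1.50 to 0.48) and -0.31 after IR (95% interval -1.26 to 0.64). At 12 to 35 counts per library, changes within these intervals could not be resolved for SIX2.

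No member was called after IR in control cells, where 3.59% of 15412 genes were called, nor in RBM6-KO1 cells, where 3.11% of 15598 were. By edgeR 2 of the 6 tested members had an unadjusted p under 0.05 in each genotype, EYA2 and SIX5 in control cells and EYA2 and EYA1 in RBM6-KO1 cells, beside 25.4% and 29.6% of all genes tested, and DESeq2 called 0 in either. The same libraries did show a response, since the p53 target CDKN1A went from 459 ± 14.8 to 1610 ± 155 CPM (SD, n = 2) in control and from 393 ± 13.8 to 1609 ± 2.90 CPM in RBM6-KO1 cells. No member had an interaction of genotype and IR at an adjusted p under 0.05, and neither did any of the 16549 genes tested (0%). Over all genes, 306 had an unadjusted interaction p under 0.05 with edgeR, and DESeq2 called 0 as well.

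The EYA2 locus was next placed among its neighbours. Within 1 Mb of the EYA2 start, 13 other genes were tested in untreated cells, and 12 of them had a log2 fold change below 0, with a median of -0.27. The range of these 13 was -1.74 to 0.34, so EYA2 at -3.92 was lower than all of them. After IR 11 of 14 neighbours were below 0, with a median of -0.26 and a lowest value of -1.98. The nearest tested genes on either side were not called. TP53RK, a kinase gene that starts 205 kb before the EYA2 start, was at -0.09 untreated and -0.13 after IR. ZMYND8, a chromatin reader gene that starts 462 kb after the EYA2 start, was at -0.27 and -0.42. Distances here and below run from gene start to gene start. After IR the nearest tested gene downstream was instead ENSG00000267882, which starts 424 kb after EYA2 and was at -1.71 without being called.

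Near the edge of this window, 2 of the 13 tested neighbours were called lower in untreated RBM6-KO1 cells, beside 1.97% of all genes tested. After IR it was 1 of 14, beside 0.815%. SULF2, an extracellular sulfatase gene 892 kb downstream, had a log2 fold change of -1.74 untreated (adjusted p = 0.00374 by edgeR) and -1.98 after IR (adjusted p = 0.0112). MMP9, a secreted collagenase gene 886 kb upstream, was at -1.49 untreated (adjusted p = 0.0237 by edgeR) and at -0.35 after IR, where it was not called (adjusted p = 0.850). SULF2 also rose after IR, by 2.28 in control and 2.02 in knockout cells (adjusted p = 0.000914 and 0.0190 by edgeR). EYA2 was at 0.75 and 1.73 there (standard errors 0.27 and 0.70), not called. A difference between the 2 genes was not tested.

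The median of chromosome 20 was also below 0 between the genotypes. The median log2 fold change was -0.24 over its 291 tested genes before EYA2 and -0.31 over its 127 genes after it in untreated cells, beside 0.01 over other chromosomes. After IR the medians were -0.24 and -0.29, beside 0.02. Of all tested chromosome 20 genes, 5.25% were called lower in untreated cells and 3.12% after IR, beside 1.88% and 0.757% on other chromosomes. In counts, 22 of 419 genes of the chromosome were called lower and 3 higher in untreated cells, and 13 of 417 lower and 1 higher after IR. EYA2 itself was at -3.92 untreated and -2.92 after IR, and the part of the chromosome's shift in these values was not tested.

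**Figure D4:**
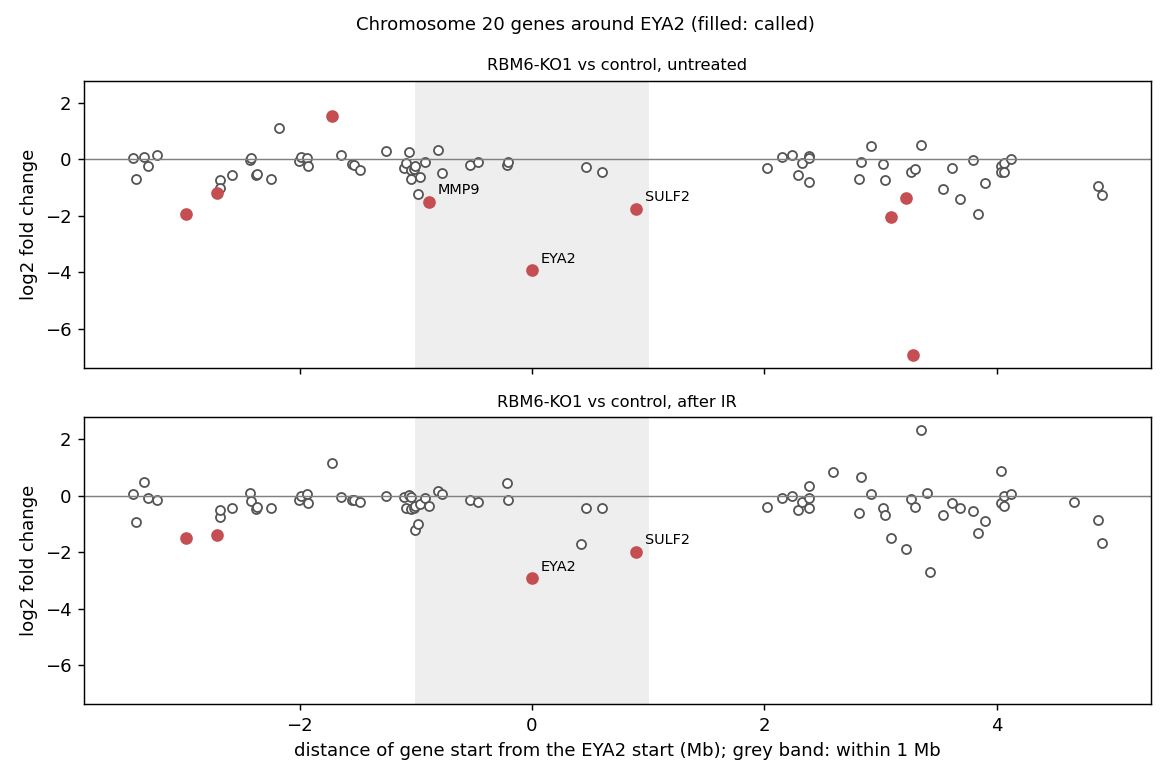
Log2 fold change between RBM6-KO1 and control cells (vertical axis) of chromosome 20 genes against the distance of their start from the EYA2 start in Mb (horizontal axis), untreated above and after IR below; filled points are called and the grey band marks 1 Mb on either side. EYA2 is the lowest gene of the band in both panels, and LINC01273, singled out after its value was seen, lies lower outside it, at -6.92 in untreated cells.

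Genes annotated inside the EYA2 interval contributed almost no counts of their own. The antisense EYA2-AS1 reached at most 1 count in any library, and MIR3616 and 3 processed pseudogenes had 0. For SIX5 the antisense genes DM1-AS and ENSG00000259605 reached 21 and 50 counts, and whether the counting used strand is not given in the sources used here, so reads of SIX5 and these genes may not have been told apart. TARID, antisense to EYA4, reached 16 counts.

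RBM6 is known to prefer the RNA word CUCUGAA, and the members were searched for the matching DNA letters CTCTGAA on the sense strand. EYA2 held 43 matches over its 294221 bases, or 14.6 per 100 kb, and none lay in its exons. The 454 tested genes of like length had a median of 32 matches and a range of 6 to 56, and 100% of them had at least 1. The 3 matches of EYA2 nearest to an exon are printed to show where they lie, with the match in capitals, 10 bases on each side and all from GRCh38, plus strand. They lie 140, 134 and 195 bases into an intron, in this order.
EYA2, chr20:46990249-46990275: aaatgcttgcCTCTGAAccaaaacttt
EYA2, chr20:47074459-47074485: ctgagagcttCTCTGAAggagggacct
EYA2, chr20:47187842-47187868: tcagagcaggCTCTGAAtagaaatggt

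SIX4, which was not called in any comparison, is shown for contrast because all 3 of its matches lie in exons. An exonic match was present in 41.1% of 16417 tested genes and in 53.7% of those with an exon length like that of SIX4. The windows are from chromosome 14, minus strand.
SIX4, chr14:60711874-60711900: gctctctagtCTCTGAAaagcaaaaaa
SIX4, chr14:60711936-60711962: tttatcaagaCTCTGAAcacaagatgt
SIX4, chr14:60712778-60712804: ccactaaaaaCTCTGAAacttcagtat
EYA1 held 42 matches, EYA3 held 15 and EYA4 held 35, and of these EYA3 and EYA4 had 1 each in an exon. SIX2 and SIX5 held 0. A match is a description of the letters and shows no binding.

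Other genes of the network were counted from lists. Of 18 network partners of the EYA and SIX-family proteins, 8 were tested, and the rest, among them DACH1 and most PAX genes, had at most 4 counts in any library. The developmental factor PAX8 rose in untreated RBM6-KO1 cells, by 1.75 on the log2 scale (adjusted p = 0.000545 by edgeR), and was at 1.15 after IR, where it was not called (adjusted p = 0.0995). TLE2, a Groucho-type corepressor, fell by 2.47 in untreated cells (adjusted p = 0.00439 by edgeR) and was at -1.74 after IR, not called (adjusted p = 0.155). The median of the 8 was -0.10 untreated and -0.02 after IR. In untreated cells 1 was called higher and 1 lower, beside 3.12% of all genes tested in either direction. After IR 0 were called, beside 1.17%.

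The H2AX tyrosine list held 9 genes around the histone mark on which EYA phosphatases act, and all 9 were tested between genotypes. APBB1, whose protein Fe65 binds the phosphorylated tyrosine of H2AX, had 5.71 and 6.44 CPM in untreated control cells. In untreated RBM6-KO1 cells it had 0.225 and 0.476 CPM, from 4 and 7 counts. After IR it had 6.73 and 5.50 CPM in control cells and 0.206 and 0.196 CPM in RBM6-KO1 cells, again far apart, the latter from 4 counts each. APBB1 fell by 4.14 untreated (adjusted p = 8.02e-06 by edgeR) and by 4.87 after IR (adjusted p = 0.00505), and the study had singled it out on these libraries. With at least 10 counts required in every library, APBB1 was not called in either comparison. Outside these libraries, the paper reported lower Fe65 mRNA by RT-qPCR in this clone, in further knockout clones and after shRNA knockdown of RBM6. It also reported less Fe65 protein by western blot, and more Fe65 mRNA and protein when RBM6 was expressed in MCF7 cells. No other gene of this list was called between genotypes, including the kinase gene BAZ1B and MDC1. Over all genes tested, 3.12% were called untreated and 1.17% after IR. In untreated cells 8 of the 9 were above 0 with a median of 0.18, and BAZ1B was at 0.40. By edgeR, 5 of the 9 had an unadjusted p under 0.05 in untreated cells and 1 after IR, beside 18.4% and 11.1% of all genes. After IR, H2AX fell by 1.07 in RBM6-KO1 cells (adjusted p = 0.0190 by edgeR) and was at -0.57 in control cells, where it was not called (adjusted p = 0.0807). The difference of these responses was -0.49 with an unadjusted p of 0.0907 by edgeR. The H2AX call was lost without replicate B of either RBM6-KO1 group, with log2 fold changes from -1.24 to -0.89 over the alternatives.

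Of 11 genes whose proteins are known partners or substrates of EYA phosphatases, 10 were tested, with medians of -0.17 untreated and -0.18 after IR. Between genotypes 0 of the 10 were called, beside 3.12% of all genes tested in untreated cells and 1.17% after IR. By edgeR, 4 of the 10 had an unadjusted p under 0.05 in untreated cells and 1 after IR, beside 18.4% and 11.1% of all genes. NOTCH1 rose after IR in control cells, by 1.24 on the log2 scale (adjusted p = 0.00388 by edgeR), and was at 0.75 in RBM6-KO1 cells, which is under 2-fold (adjusted p = 0.0396). The mitotic kinase gene PLK1 fell after IR by 1.23 in control cells (adjusted p = 0.00388 by edgeR) and by 1.43 in the knockout (adjusted p = 0.00373). Of all genes tested for IR, 3.59% were called in control and 3.11% in RBM6-KO1 cells.

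Of 13 genes known as targets of SIX-family and EYA proteins, 10 were tested. CCNA1, the cyclin A1 gene, fell by 1.65 in untreated RBM6-KO1 cells (adjusted p = 0.00965 by edgeR). After IR it was at -0.69, not called (adjusted p = 0.490), and without untreated control replicate A the untreated value was not called either, the range over the alternatives being -1.98 to -1.22. No other target was called in any of the 4 pairwise comparisons, and the median of the 10 was -0.14 untreated and 0.06 after IR. Between genotypes 3.12% of all genes tested were called untreated and 1.17% after IR.

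**Figure D5:**
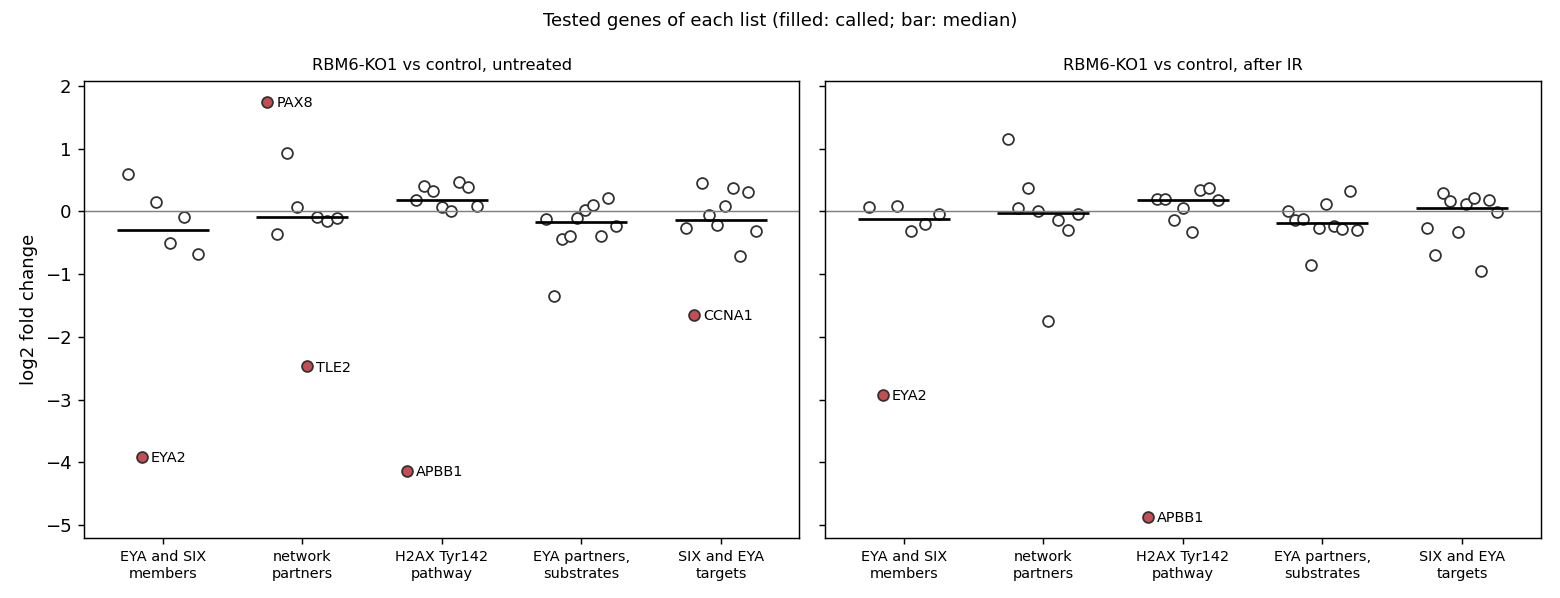
Log2 fold change between RBM6-KO1 and control cells (vertical axis) of the tested members and of the tested genes of 4 lists, untreated on the left and after IR on the right, with filled points for called genes and a bar for the median of each list. The medians lie between -0.30 and 0.18, and EYA2 and APBB1 are the points filled in both panels.

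The genes whose levels followed EYA2 most closely were L1CAM, HDAC5, PRSS23, PIK3IP1 and TPM1, ranked by Pearson's r of log2 CPM over the 8 libraries among 16549 genes. Their r values ran from 0.988 to 0.989 and are a description, since the points share libraries and come from only 4 groups. PRSS23, a serine protease gene, had 6.63 and 5.26 CPM in untreated control, 11.6 and 11.0 CPM in irradiated control, 1.29 and 0.544 CPM in untreated RBM6-KO1, and 2.58 and 2.69 CPM in irradiated RBM6-KO1 cells. Its order of groups was that of EYA2, with a log2 fold change of -2.65 in untreated cells and -2.09 after IR. For L1CAM, a cell adhesion gene, the values were -1.78 and -1.36. The other 3 lay between -1.30 and -0.93 untreated and between -1.07 and -0.65 after IR.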

How the data were processed

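Poly(A)-selected RNA of 8 libraries was sequenced by the authors, who deposited whole-number counts per Ensembl gene without normalization. Alignment to hg38 is given in the submitters' processing notes, which name STAR, while the counting tool, annotation version and strandedness are not given in the sources used here. Symbols and positions came from GENCODE v44, which holds 57392 of the 58233 identifiers. Counts were tested in R 4.3.3 with edgeR 4.0.16 (quasi-likelihood test, TMM factors, filterByExpr), each comparison on its own 4 libraries and the interaction over all 8. A gene was called where it had a Benjamini-Hochberg adjusted p under 0.05 and at least 2-fold. The standard error is the log2 fold change divided by the square root of F. CPM used TMM factors of all 8 libraries, and RPKM the summed exon length. DESeq2 1.42.0, other normalizations and filters, a replicate block and leaving out each library were alternatives. A joint correction for GC content, exon length and expression by a linear fit on splines was added after seeing the data. It is named the GC correction below. Steps were tested on simulated data. Library totals of 15355281 to 29832009 limit precision, and intervals on counts cover counting error only. The text names every member, SIX3 and SIX6, each called gene of the 4 lists and of the cell type markers, the 5 genes most like EYA2 and its called or nearest tested neighbours. The members and lists were chosen with earlier results of these data known. Splicing was not analysed here. One gene of the lists is not reported here.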

Additional observations from a re-analysis of the deposited data

How the results depend on the processing

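EYA2 was called lower in both genotype comparisons under each alternative that tested it, with log2 fold changes of -5.67 to -3.23 untreated (adjusted p 1.39e-14 to 0.00166) and -3.03 to -2.77 after IR (adjusted p 3.12e-13 to 0.0197), the values including the GC correction, which gives no p. Requiring 10 counts or more in each library left EYA2 untested in untreated cells, and the number of members called there was then 0, since the 7 and 1 counts of the RBM6-KO1 libraries fall under it. Leaving out each library in turn gave 1 to 1 members called in the genotype comparisons and 0 to 0 in the IR comparisons and the interaction, where the lone library of a group is assumed to vary like the others. With the replicate letter as a replicate block, the EYA2 values were -3.93 (adjusted p = 0.000147 by edgeR) and -2.92 (adjusted p = 4.55e-05), and no call of a member changed. The correlation of deviations of same-lettered libraries ran from -0.28 to 0.35 over the pairs of groups. It was highest, at 0.35, between irradiated control and irradiated RBM6-KO1 cells, and was 0.08 between the untreated genotypes. What same-lettered libraries share was not tested. Over all genes, the block called 541 after IR against 182, and DESeq2 called 280 there. Over all alternatives the genes called ranged from 350 to 658 around 486 untreated, 71 to 541 around 182 after IR, 287 to 1406 around 553 for IR in control cells, 289 to 1563 around 485 for IR in RBM6-KO1 cells, and 0 to 1 around 0 for the interaction. The GC correction also moved EYA3 after IR to 0.14 in control and 0.06 in RBM6-KO1 cells and SIX5 after IR to 0.30 in RBM6-KO1 cells, and the cause was not tested. Depth limits EYA1, SIX2 and EYA2 in RBM6-KO1 cells most, at 1 to 41 counts per library.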

Other observations

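Genes around SIX5 were also read, within 1 Mb of its start. In untreated RBM6-KO1 against control cells, 4 of its 52 tested neighbours were called lower, beside 1.97% of all genes tested, with a median log2 fold change of -0.18 and 35 of them below 0. After IR 0 of 53 were called by edgeR, where 6 had an unadjusted p under 0.05, beside 11.1% of all genes, and the median was -0.10.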
